A study of Rattus norvegicus with 9 samples.

Results

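The 32 genes described here carry out or control the cell's handling of cholesterol: 18 enzymes of sterol synthesis, 5 genes of the SREBP switch, 4 genes of sterol transport and storage, and 5 genes of the LXR receptors and their efflux targets. They were picked by gene symbol, with earlier results of these data known. Every one has a row in the deposited table of 17327 rows and passed the filter on low counts, which kept 11873 genes. Expression was measured by RNA sequencing of neonatal rat ventricular myocytes, heart muscle cells put into primary culture. The study asked how 2 stimuli of hypertrophic growth change the transcriptome. The 3 groups, with 3 samples each, were cells given vehicle, cells given 50 µM phenylephrine, an agonist of alpha-adrenergic receptors, and cells given 10 nM IGF1, a growth factor, all for 48 hours. The labels do not state how cultures and litters relate to the 3 samples of a group or how pure the cells were, so each p-value rests on sample-to-sample spread that could be technical only.

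Cholesterol is built from acetyl-CoA through mevalonate, isoprenoid pyrophosphates, squalene and lanosterol. The genes of this route are activated by SREBP transcription factors, which are made as membrane proteins of the endoplasmic reticulum. When sterols are scarce, the escort protein Scap carries them to the Golgi, where proteases release the active fragment, and when sterols are plentiful, Insig proteins hold Scap back. The LXR receptors respond to oxysterols in the opposite situation and raise the genes for export of cholesterol. A heart muscle cell that enlarges adds membrane, of which cholesterol is a component.

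Total counts ran from 31274396 to 48505265 per sample, and a level of 1 CPM, the reads of a gene relative to the size of its library scaled by edgeR's normalization factors, rested on 29.1 to 51.6 reads. The 32 genes were well covered, from 127 reads for Nr1h3 in 1 IGF1 sample to 29382 reads for Hmgcs1 in 1 phenylephrine sample. IGF1 replicate 1 stood apart. Among genes with a mean of at least 5 CPM, 226 and 263 differed over 1.5-fold between it and the other IGF1 samples, against 6 to 30 genes for the other pairs of samples of a group. Values without it are given where a result turned on it. The cardiomyocyte markers were abundant in all samples, and their summed level was 44718 to 48486 CPM with vehicle, 70493 to 71330 CPM with phenylephrine and 52598 to 75435 CPM with IGF1, where replicate 1 held the highest sum. Of 10 cardiomyocyte markers, 8 were higher and 2 lower with phenylephrine, and 7 were higher with IGF1. Of all genes tested, 27.9% were called higher and 28.9% lower with phenylephrine at an adjusted p under 0.05 (edgeR). With IGF1 these shares were 24.7% and 23.4%. Fibroblast markers summed to 5019 to 6002 CPM with vehicle, 4657 to 4751 CPM with phenylephrine and 5896 to 6807 CPM with IGF1. Of 7 tested fibroblast markers, 1 was higher and 4 lower with phenylephrine, and 3 were higher and 1 lower with IGF1. Markers of macrophages and leukocytes, cells rich in sterol efflux genes, overlapped between the groups (73.5 to 83.1 CPM with vehicle, 65.8 to 85.4 CPM with phenylephrine and 67.2 to 74.9 CPM with IGF1), 3 of their 10 genes had a mean under 1 CPM (Cd163, C1qa and C1qb), and Cd163 was at 0 in all vehicle samples. Of 8 tested macrophage and leukocyte markers, 2 were lower with phenylephrine and 1 with IGF1. Endothelial markers were lower with IGF1: 5 of 8 were lower and their sum was 28.3 to 34.4 CPM against 69.5 to 78.4 CPM with vehicle. With phenylephrine their sum was 56.7 to 68.1 CPM, also below the vehicle range, with 1 of 8 higher and 1 lower. Smooth muscle and pericyte markers summed to 704 to 747 CPM with phenylephrine against 462 to 487 CPM with vehicle, with 2 of 7 higher and 3 lower. The part of these cell types in the results below was not tested, and in bulk RNA a change in the number of cells of a type and in RNA per cell cannot be told apart.

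Promoter sequences are shown first, for genes that rose and for a gene that did not, because SREBP acts on promoters of sterol genes together with NF-Y, a factor that binds the letters CCAAT. RefSeq's promoter table of the GRCr8 build held 27 of the 32 genes, and the 250 bases before the annotated start were searched on both strands for CCAAT, for TCANNCCAC, a pattern that resembles sterol response elements, and for CACGTG, the E-box, with overlapping matches counted. At least 1 CCAAT was present before 19 of the 27 genes, or 70.37%, against 34.02% of all 33469 promoters in the table and 35.67% of the 8976 genes tested here that the table holds. The E-box was present before 4 of the 27 genes (Sc5d, Insig1, Scap and Abca1), or 14.81%, in 5.59% of all promoters and in 8.11% of the tested genes. TCANNCCAC was found before Fdps and Insig2 only, or 7.41% of the 27, in 3.3% of all promoters and in 3.49% of the tested genes. CCAAT was absent before Cyp51, Acat2 and Dhcr7, which rose with phenylephrine. It was also absent before Scap, Npc1, Abca1, Nr1h2 and Nr1h3, none of them called higher with phenylephrine. Npc2 and Mylip, called lower with phenylephrine, held 3 and 2 matches to CCAAT. These matches describe letters in a window and show no binding. The examples follow, 5′ to 3′ on the strand of the gene, with the matched letters in capitals (CCAAT appears as ATTGG where it lies on the other strand): Hmgcs1, Idi1 and Fdps had the largest rises with phenylephrine among enzymes, Insig1 is the induced retention factor, and Insig2 is its paralog whose level stayed near that of vehicle.
Hmgcs1, chr2:53382054-53382303, plus strand: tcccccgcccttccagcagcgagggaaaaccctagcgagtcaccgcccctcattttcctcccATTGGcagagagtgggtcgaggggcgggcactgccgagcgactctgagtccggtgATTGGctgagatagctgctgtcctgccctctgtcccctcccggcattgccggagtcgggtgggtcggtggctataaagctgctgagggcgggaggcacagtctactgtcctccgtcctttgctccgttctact
Idi1, chr17:66547525-66547774, minus strand: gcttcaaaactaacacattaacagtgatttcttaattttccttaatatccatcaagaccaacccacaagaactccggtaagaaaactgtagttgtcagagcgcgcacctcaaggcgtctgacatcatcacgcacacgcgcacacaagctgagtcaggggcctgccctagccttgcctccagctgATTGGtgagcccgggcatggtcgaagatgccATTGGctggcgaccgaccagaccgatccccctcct
Fdps, chr2:176804817-176805066, minus strand: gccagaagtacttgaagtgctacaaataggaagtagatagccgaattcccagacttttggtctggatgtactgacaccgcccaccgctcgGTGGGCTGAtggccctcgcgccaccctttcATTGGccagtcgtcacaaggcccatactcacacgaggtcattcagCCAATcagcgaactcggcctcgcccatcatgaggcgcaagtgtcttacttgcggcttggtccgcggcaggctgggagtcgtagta
Insig1, chr4:8057770-8058019, minus strand: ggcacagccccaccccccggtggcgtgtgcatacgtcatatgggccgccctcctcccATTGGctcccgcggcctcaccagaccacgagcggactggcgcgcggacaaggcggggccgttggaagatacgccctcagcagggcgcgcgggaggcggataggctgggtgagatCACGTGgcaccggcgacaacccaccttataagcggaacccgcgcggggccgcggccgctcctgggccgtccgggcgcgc
Insig2, chr13:35040099-35040348, minus strand: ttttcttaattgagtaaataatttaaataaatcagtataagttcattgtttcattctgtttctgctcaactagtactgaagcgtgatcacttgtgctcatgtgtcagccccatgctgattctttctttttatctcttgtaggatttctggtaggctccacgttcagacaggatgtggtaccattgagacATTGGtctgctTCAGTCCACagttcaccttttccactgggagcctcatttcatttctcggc
In Idi1 the pair of CCAAT matches began 66 and 35 bases before the start, in Hmgcs1 188 and 133 bases before it, and in Fdps 130 and 85 bases before it.

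With phenylephrine, every one of the 18 synthesis enzymes rose. Over all 32 genes, 23 were higher and 5 lower than with vehicle at an adjusted p under 0.05 (edgeR quasi-likelihood test, Benjamini-Hochberg over all 11873 genes). Of all genes tested, 27.9% were called higher and 28.9% lower. The median log2 fold change was 1.26 over the 18 enzymes and 1.05 over the 32 genes, against -0.03 over all genes tested. In all 18 enzyme genes the 3 phenylephrine samples lay above the 3 vehicle samples, and over the 32 genes the groups separated upwards in 24 and downwards in 5, against 32.6% and 34% of all genes. The normalization factors of edgeR were 1.06 to 1.08 in the vehicle samples and 0.931 to 0.936 in the phenylephrine samples. With scaling by library size only, the median of all genes moved to -0.22 and the calls higher made up 23.5% of all calls rather than 49.1%, and 18 of 18 enzymes were called higher under that scaling too.

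Among the first steps, Hmgcs1, which makes HMG-CoA from acetoacetyl-CoA, rose most. Its level was 193, 194 and 199 CPM in the vehicle samples, 912, 939.5 and 892 CPM with phenylephrine and 486, 383 and 373 CPM with IGF1. The phenylephrine samples were highest, IGF1 replicate 1 lay above IGF1 replicates 2 and 3, and no groups overlapped. The rise with phenylephrine was 4.69-fold (log2 fold change 2.23, SE 0.086, adjusted p = 3.5e-09). Acat2, the cytosolic thiolase that joins 2 acetyl-CoA units, went from 29.4, 27.2 and 28.2 CPM to 95.8, 96.3 and 93.5 CPM, a 3.37-fold rise (adjusted p = 9.2e-09). The kinases and the decarboxylase that turn mevalonate into isopentenyl pyrophosphate moved less: Mvk rose 1.67-fold, Pmvk 1.68-fold and Mvd 2.19-fold (adjusted p = 3.7e-05, 9.8e-06 and 9.2e-06). Pmvk went from 35.2, 35.99 and 36.6 CPM with vehicle to 64.5, 60.3 and 56.03 CPM.

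The isoprenoid steps held the largest rises of the 32 genes, those of Idi1 and Fdps. Idi1, the isomerase that interconverts the isoprenoid building blocks, was at 61.3, 62.9 and 63.9 CPM with vehicle, 444, 447 and 421 CPM with phenylephrine and 193, 153 and 145 CPM with IGF1. All phenylephrine samples thus exceeded all IGF1 samples, and all IGF1 samples exceeded all vehicle samples. Fdps, which builds farnesyl pyrophosphate, rose 5.42-fold with phenylephrine, from 113, 115 and 117 CPM to 635, 623 and 615 CPM (log2 fold change 2.44, SE 0.15, adjusted p = 7.3e-06). Sqle, the epoxidase that commits squalene to sterols, rose 3.58-fold, from 61.9 ± 0.782 CPM to 221 ± 4.89 CPM (SD, n = 3; edgeR adjusted p = 5.5e-06). Fdft1, squalene synthase, was at 179, 182 and 186 CPM with vehicle and 410.5, 400.2 and 396 CPM with phenylephrine, a 2.20-fold rise (adjusted p = 1.3e-08). With IGF1 it was at 221, 179.9 and 179.7 CPM, with replicates 2 and 3 inside the vehicle range (log2 fold change 0.084, 95% interval -0.058 to 0.23, adjusted p = 0.32). Without IGF1 replicate 1 the IGF1 value was -0.021 (adjusted p = 0.61).

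The 9 genes that close, demethylate and reduce the sterol ring all rose with phenylephrine, by 1.43-fold to 4.0-fold. Cyp51, the lanosterol demethylase, rose most of them, from 195, 185 and 189 CPM to 759.5, 762 and 757 CPM (log2 fold change 2.00, SE 0.069, adjusted p = 7.8e-11). The methyl sterol oxidase Msmo1 rose 3.67-fold, from 68.3 ± 2.16 to 250.4 ± 4.91 CPM (SD, n = 3). Hsd17b7, a sterol ketoreductase with the lowest counts of these genes, went from 3.15, 3.25 and 2.91 CPM to 12.2, 12.02 and 12.1 CPM, a 3.91-fold rise (adjusted p = 2.2e-08). Between these and the smallest rise lay the demethylation enzyme Nsdhl at 2.42-fold, the desaturase Sc5d at 2.38-fold, the last-step reductase Dhcr7 at 2.31-fold, the sterol reductase Tm7sf2 at 1.97-fold and the cyclase Lss at 1.84-fold. Their adjusted p-values ran from 3.7e-11 for Sc5d to 3.1e-08 for Lss. Ebp, the sterol isomerase, was at 9.40, 11.04 and 10.2 CPM with vehicle, 15.8, 14.1 and 13.8 CPM with phenylephrine and 11.9, 11.1 and 12.8 CPM with IGF1. Its phenylephrine samples lay above both other groups (log2 fold change against vehicle 0.51, adjusted p = 2.5e-04).

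**Figure D1:**
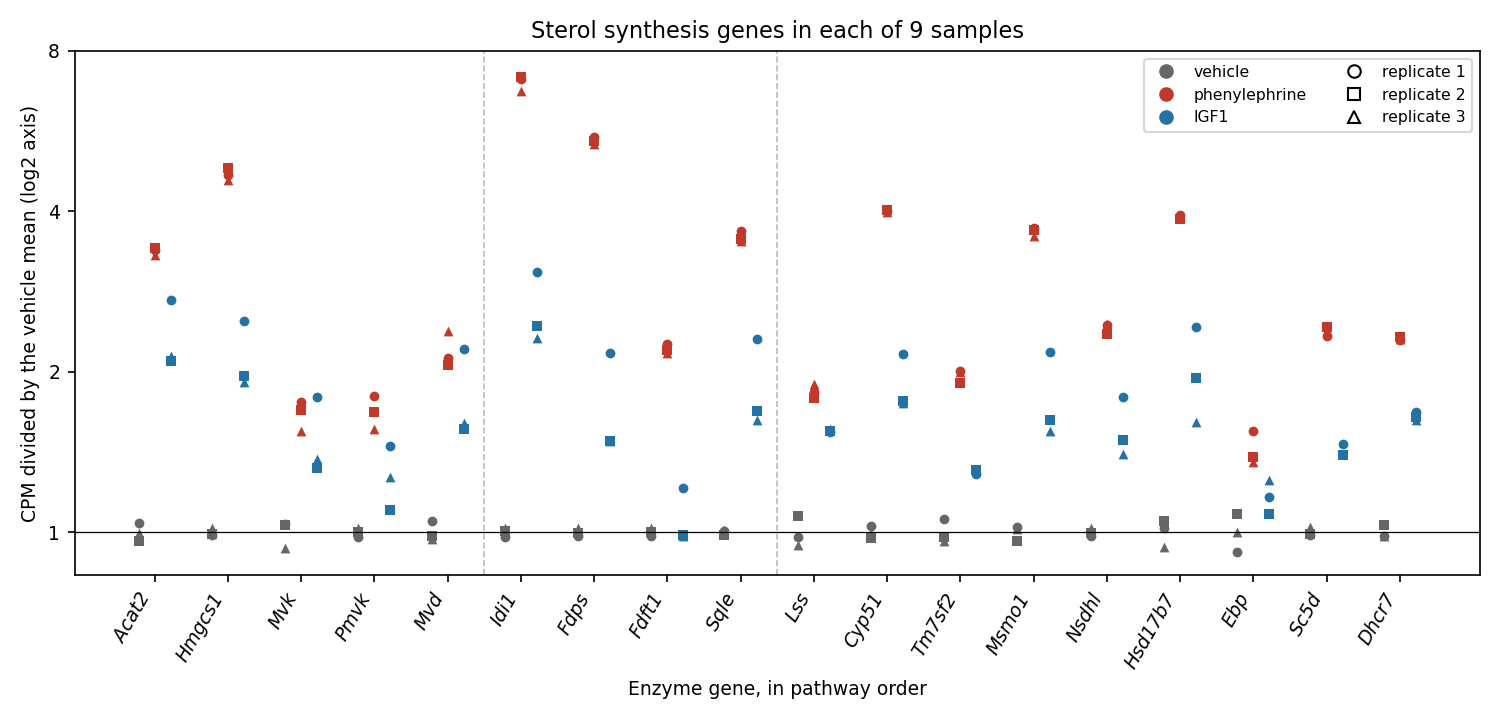
Level of each of 18 sterol synthesis genes in each of 9 samples, as CPM divided by the vehicle mean of that gene on a log2 axis, with colour for the group, marker shape for the replicate number, and dashed lines between the mevalonate, squalene and ring steps. Phenylephrine samples lie above the vehicle samples for all 18 genes, and the point of IGF1 replicate 1 lies above IGF1 replicates 2 and 3 for 15 of them.

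IGF1 raised the same route to a smaller extent. Of the 18 enzymes, 16 were higher and none lower than with vehicle, with a median log2 fold change of 0.75. Over the 32 genes, 21 were higher and 5 lower, while 24.7% of all genes tested were called higher and 23.4% lower, with a median of -0.0018. The 3 IGF1 samples lay wholly above the vehicle samples in 22 of the 32 genes and below in 5, against 28.8% and 27.7% of all genes. Scaling by library size only took the calls higher from 51.3% to 36.0% of all calls and left 16 of 18 enzymes higher. The largest rise among enzymes was again that of Idi1, at 2.60-fold (log2 fold change 1.38, SE 0.091, adjusted p = 8.6e-07), followed by Acat2 at 2.31-fold and Hmgcs1 at 2.12-fold. Cyp51 rose 1.89-fold and Dhcr7 1.65-fold, the latter from 26.5, 27.7 and 26.5 CPM to 45.2, 44.2 and 43.6 CPM. Fdft1 and Ebp missed the threshold.

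Hsd17b7 rose 1.98-fold with IGF1, to 7.54, 6.03 and 4.99 CPM (adjusted p = 3.7e-05). Sqle was at 62.1, 61.1 and 62.6 CPM with vehicle, 227, 219.6 and 218 CPM with phenylephrine and 142, 104 and 100.4 CPM with IGF1, and IGF1 replicate 1 lay well above the other pair. The same held for Msmo1, at 149, 111 and 106 CPM with IGF1 against 69.8, 65.8 and 69.2 CPM with vehicle. Nsdhl rose 1.56-fold, Lss 1.55-fold, Sc5d 1.42-fold and Tm7sf2 1.30-fold (adjusted p = 5.5e-06, 1.1e-06, 2.4e-07 and 2.0e-04). Sc5d separated all groups, at 38.02, 38.2 and 39.3 CPM with vehicle, 89.7, 93.4 and 92.2 CPM with phenylephrine and 56.4, 53.8 and 54.02 CPM with IGF1. Mvd rose 1.78-fold, from 16.3, 15.3 and 15.1 CPM to 34.3, 24.3 and 24.9 CPM with IGF1, against 33.1, 31.98 and 37.1 CPM with phenylephrine. Pmvk had the smallest rise that passed, 1.27-fold, at 52.04, 39.5 and 45.6 CPM with IGF1 (adjusted p = 0.0049). Ebp had a log2 fold change of 0.22 (95% interval 0.026 to 0.42, adjusted p = 0.059), and it passed with an adjusted p of 0.0496 without vehicle replicate 2, 0.045 without IGF1 replicate 1 and 0.041 without IGF1 replicate 2.

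IGF1 replicate 1 carried the highest IGF1 level of most of these enzymes. It lay above both other IGF1 samples in 15 of 18 enzyme genes, against 41.3% of all genes tested, and exceeded their mean by over 1.2-fold in 13 of 18, against 11.7% of all genes. The ratio ran from 0.979 for Tm7sf2 to 1.46 for Fdps, with a median of 1.26. For Fdps the IGF1 samples were at 249.6, 171 and 171 CPM, so that replicate 1 alone stood well above the other pair. That library also held the highest summed cardiomyocyte markers of the IGF1 samples, 75435 CPM against 52598 and 53984 CPM. In it Actc1 was at 18326 CPM against 8292 and 8631 CPM, and Myh7 at 25893 CPM against 19200 and 19434 CPM. Myh6 (2081 against 2091 and 2086 CPM) and Ryr2 (1728 against 1815 and 1735 CPM) were not higher in it. The other listed cardiomyocyte markers were higher in it. Summed smooth muscle and pericyte markers were also highest in this library among the IGF1 samples, at 593 CPM against 530 and 537 CPM. Of those with a mean of at least 1 CPM, Cnn1 and Cspg4 were higher in it and Myh11, Pdgfrb and Abcc9 lower. Its normalization factor was 0.950, against 1.036 and 1.033 in IGF1 replicates 2 and 3 and 0.931 to 0.936 in the phenylephrine samples. The part of these differences in its enzyme levels was not tested. Leaving IGF1 replicate 1 out lowered the log2 fold change of Fdps from 0.77 to 0.57 and that of Idi1 from 1.38 to 1.247, and 17 of 18 enzymes were then called higher, with a median of 0.65.

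**Figure D2:**
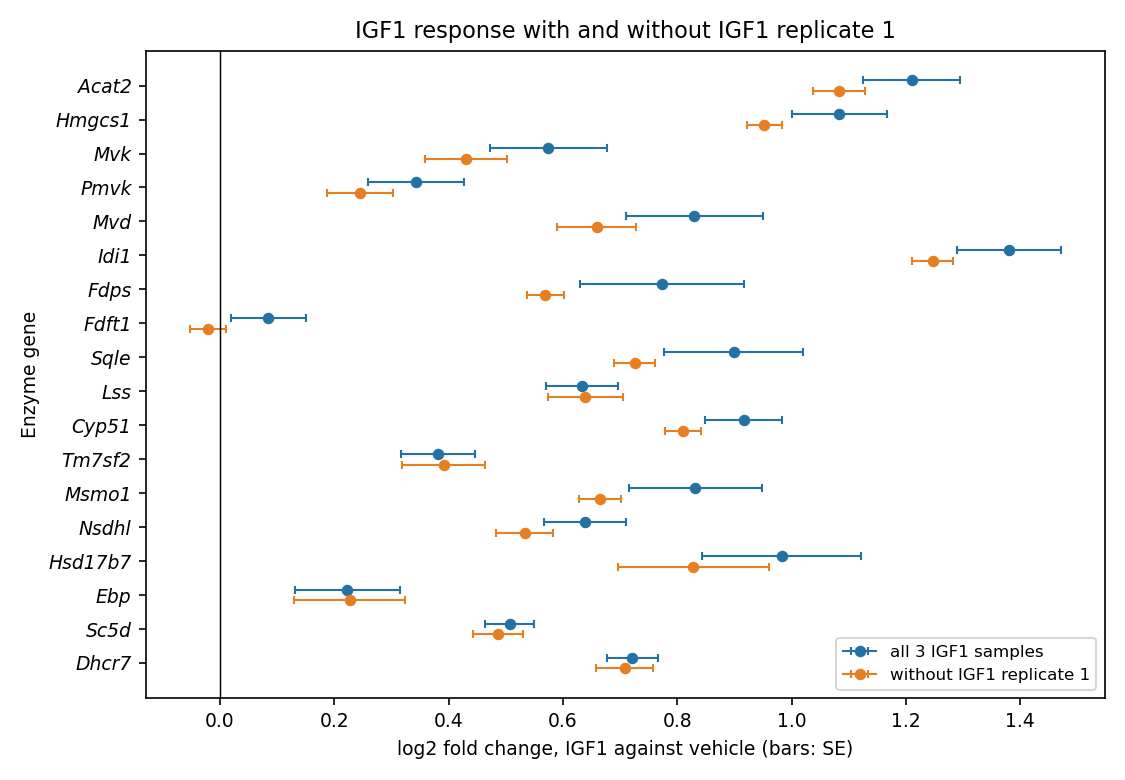
The log2 fold change of each synthesis gene for IGF1 against vehicle, with its SE as a bar, from all samples (blue) and without IGF1 replicate 1 (orange). The orange points lie to the left of the blue ones for most genes and have shorter bars for many, as for Fdps, whose value goes from 0.77 to 0.57.

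Compared directly, phenylephrine gave the higher level. Of the 18 enzymes, 17 were higher with phenylephrine than with IGF1 and none lower, with a median log2 difference of 0.69. Among all genes tested, 27.1% were called higher and 27.1% lower in this comparison, and over the 32 genes 25 were higher and 4 lower. The samples of the 2 stimuli separated in the same directions for 24 and 4 of them, against 29.3% and 29.5% of all genes. The widest gap was that of Fdps, 3.17-fold higher with phenylephrine than with IGF1 (adjusted p = 5.3e-05). Idi1 was 2.68-fold higher, Hmgcs1 2.21-fold, Cyp51 2.12-fold, Fdft1 2.08-fold and Msmo1 2.06-fold (adjusted p from 1.2e-08 to 1.1e-04). At the other end, Mvk did not pass the threshold, with IGF1 samples at 29.7, 21.8 and 22.7 CPM and phenylephrine samples at 29.1, 27.98 and 25.6 CPM (log2 difference 0.16, 95% interval -0.058 to 0.38, adjusted p = 0.2). Its IGF1 replicate 1 was above all phenylephrine samples, and without that sample Mvk was called higher with phenylephrine (log2 0.31, adjusted p = 2.9e-04), which made 18 of 18.

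Some of the smaller gaps passed in some settings only. The call for Mvd (log2 0.30, adjusted p = 0.049) ended when any sample other than IGF1 replicate 1 was left out (adjusted p = 0.057 to 0.17), and without IGF1 replicate 1 the gap was log2 0.47 (adjusted p = 9.4e-08). It also ended with no filter (adjusted p = 0.065) and with only the 2 groups compared (adjusted p = 0.098). That for Ebp (log2 0.29, adjusted p = 0.015) ended without phenylephrine replicate 1 (adjusted p = 0.079) or IGF1 replicate 2 (adjusted p = 0.074). With scaling by library size only, Mvd, Lss and Ebp lost the call (adjusted p = 0.11, 0.12 and 0.14), leaving 14 of 18 enzymes higher. That scaling moved the median of all genes for phenylephrine against IGF1 from -0.0025 to -0.11 and the calls higher from 49.9% to 32.8% of all calls.

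The genes of the SREBP switch did not all move alike. Srebf2, the factor that acts mainly on sterol synthesis, was at 137, 137 and 134 CPM with vehicle, 296, 312 and 312 CPM with phenylephrine and 213, 196 and 202 CPM with IGF1. The groups did not overlap, and the rises were 2.25-fold (log2 fold change 1.17, SE 0.042, adjusted p = 4.0e-11) and 1.49-fold (adjusted p = 4.1e-08). Srebf1, the related factor that acts more on fatty acid synthesis and is itself an LXR target, had the other order between the stimuli, at 54.1, 54.4 and 51.9 CPM, 79.3, 84.5 and 85.7 CPM and 106, 99.5 and 102 CPM in the same groups. Here the IGF1 samples were highest, and Srebf1 was 1.23-fold lower with phenylephrine than with IGF1 (log2 fold change -0.30, SE 0.045, adjusted p = 5.3e-05). Against vehicle it rose 1.56-fold with phenylephrine and 1.91-fold with IGF1 (adjusted p = 3.1e-08 and 7.5e-10).

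The retention factors split. Insig1, which SREBP itself induces as feedback, rose from 108, 114 and 114 CPM to 269, 263 and 265 CPM with phenylephrine, or 2.37-fold (log2 fold change 1.245, SE 0.056, adjusted p = 3.4e-10). With IGF1 it was at 174, 149 and 146 CPM, a 1.39-fold rise (adjusted p = 6.0e-06). Insig2, its paralog, was at 18.8, 19.5 and 19.9 CPM with vehicle, 19.5, 21.4 and 18.3 CPM with phenylephrine and 19.4, 20.8 and 19.6 CPM with IGF1, so the groups overlapped. Its log2 fold change was 0.027 with phenylephrine (95% interval -0.13 to 0.18, adjusted p = 0.77) and 0.040 with IGF1 (95% interval -0.11 to 0.19, adjusted p = 0.68), and these values changed sign with scaling by library size only (-0.17 and -0.042). The promoters of both genes, printed above, hold a CCAAT on the other strand. That of Insig1 also holds an E-box and that of Insig2 a TCANNCCAC match.

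Scap, the escort of SREBP, was at 75.2, 72.7 and 71.3 CPM with vehicle, 78.5, 76.5 and 82.2 CPM with phenylephrine and 71.4, 66.3 and 63.5 CPM with IGF1. The phenylephrine samples lay above both other groups, while those of vehicle and IGF1 overlapped. Against vehicle neither stimulus passed the threshold (log2 0.11, adjusted p = 0.064 with phenylephrine, and -0.13, adjusted p = 0.0505 with IGF1), but phenylephrine exceeded IGF1 by 1.18-fold (adjusted p = 9.4e-04). Without IGF1 replicate 1 both passed, as higher with phenylephrine (adjusted p = 0.0094) and lower with IGF1 (log2 -0.17, adjusted p = 7.8e-04), and without vehicle replicate 3 the fall with IGF1 had an adjusted p of 0.049. The rise with phenylephrine also passed with RLE factors (adjusted p = 0.048) and with only the 2 groups compared (adjusted p = 0.0069), and the fall with IGF1 with the stricter filter (adjusted p = 0.044). With scaling by library size only, the phenylephrine value became -0.080 (adjusted p = 0.16) and the IGF1 value -0.21 (adjusted p = 0.0026).

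**Figure D3:**
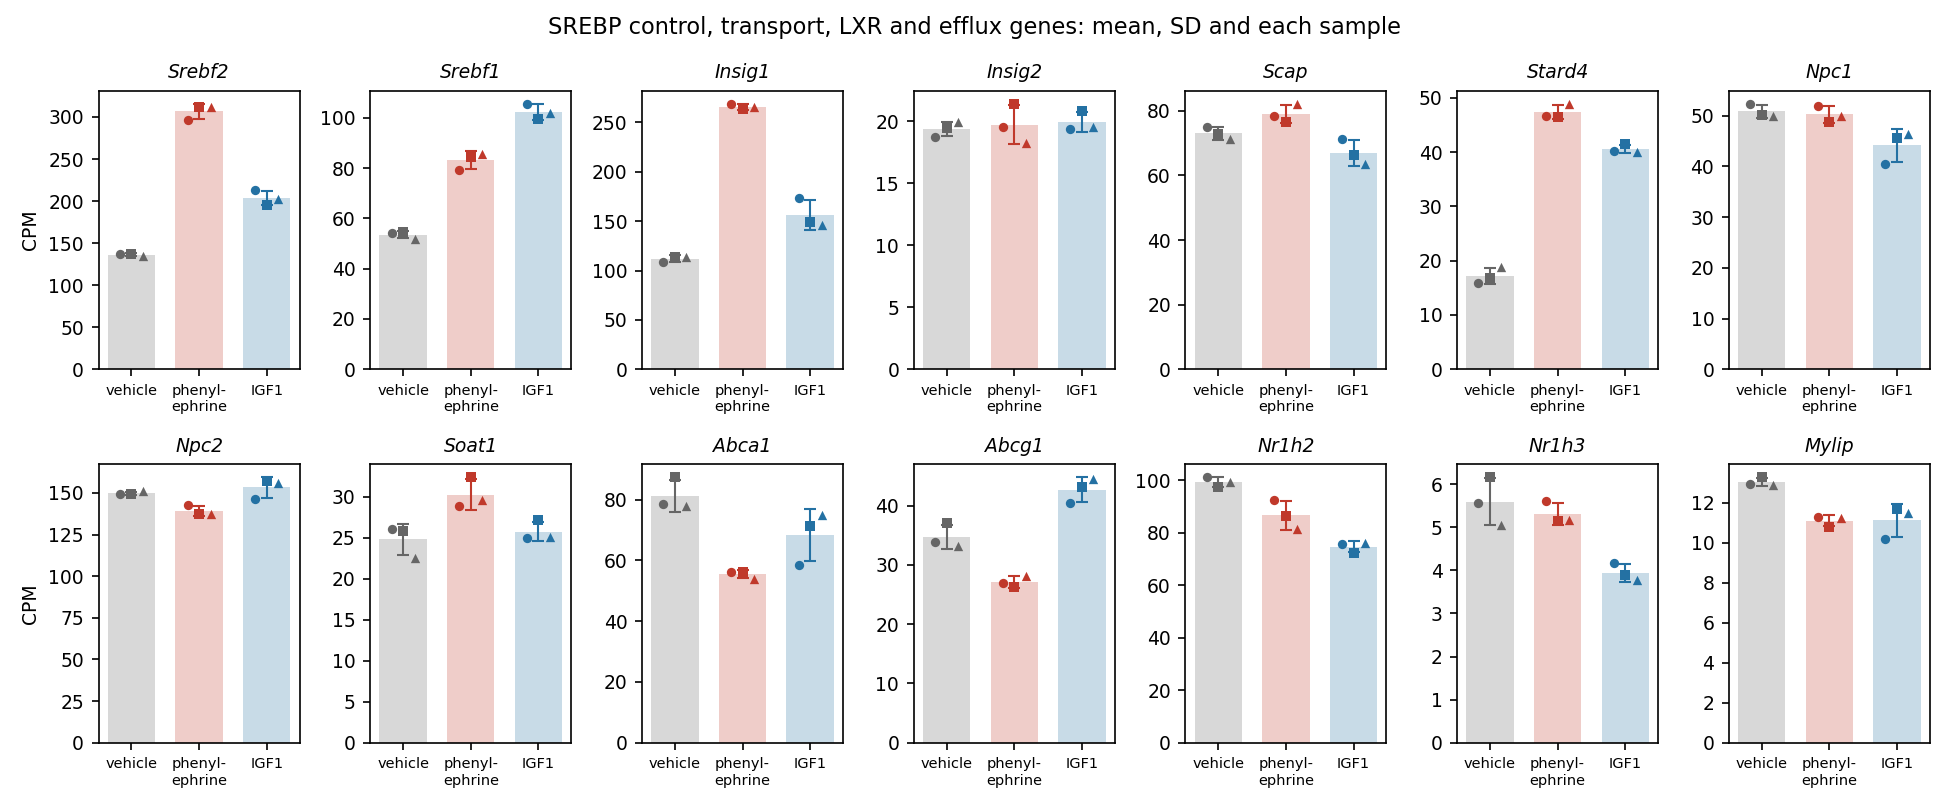
CPM of 14 genes of SREBP control, sterol transport and storage, LXR receptors and efflux, with bars for the mean of 3 samples, lines for the SD, and points for each sample (circle, square and triangle for replicates 1, 2 and 3). Srebf2 and Insig1 are highest with phenylephrine, Srebf1 and Abcg1 are highest with IGF1, and Abca1 is lowest with phenylephrine.

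Among the 4 transport and storage genes, Stard4 had the largest change with either stimulus. Stard4, a soluble sterol carrier and known SREBP target, was at 15.9, 16.9 and 18.8 CPM with vehicle, 46.7, 46.5 and 48.9 CPM with phenylephrine and 40.2, 41.5 and 40.0 CPM with IGF1. Both stimuli thus raised it, by 2.75-fold and 2.36-fold (adjusted p = 2.0e-10 and 1.1e-09). The gap between the stimuli was small (log2 0.22, adjusted p = 0.0057) and missed the threshold with scaling by library size only (adjusted p = 0.18). Soat1, which esterifies cholesterol for storage, rose with phenylephrine from 26.1, 25.8 and 22.6 CPM to 28.9, 32.4 and 29.6 CPM (1.22-fold, adjusted p = 0.0029), and that call also ended under library-size scaling (log2 0.094, adjusted p = 0.33). With IGF1 it was at 24.98, 27.1 and 25.1 CPM (log2 0.055, 95% interval -0.10 to 0.21), and phenylephrine exceeded IGF1 by log2 0.23 (adjusted p = 0.012), a call that ended without phenylephrine replicate 2 (adjusted p = 0.072) and under library-size scaling (adjusted p = 0.23).

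Npc1 and Npc2 hand cholesterol out of the lysosome. Npc1 was at 52.3, 50.1 and 49.97 CPM with vehicle, 51.9, 48.7 and 49.99 CPM with phenylephrine and 40.4, 45.6 and 46.5 CPM with IGF1. The first pair of groups overlapped (log2 -0.018, 95% interval -0.13 to 0.10), and all IGF1 samples were lower, by 1.15-fold (adjusted p = 0.0069). With scaling by library size only, Npc1 was also called lower with phenylephrine (log2 -0.21, adjusted p = 0.023). The direct gap of log2 0.18 (adjusted p = 0.012) missed the threshold without phenylephrine replicate 1 (adjusted p = 0.058) and under that scaling (adjusted p = 0.45). Npc2 went from 149, 149 and 151 CPM to 143, 138 and 138 CPM with phenylephrine, a log2 fold change of -0.11 (adjusted p = 0.035). It missed the threshold without vehicle replicate 2 or 3 (adjusted p = 0.053 and 0.064), without phenylephrine replicate 2 or 3 (adjusted p = 0.11 and 0.11), with no filter (adjusted p = 0.0503) and in DESeq2 (adjusted p = 0.0501). With IGF1 the Npc2 samples were at 146, 157 and 156 CPM (log2 0.033, 95% interval -0.053 to 0.12), and the level with phenylephrine was below that with IGF1 (log2 -0.14, adjusted p = 0.009).

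The LXR and efflux genes ran against the synthesis genes with phenylephrine: 4 of 5 were lower and none higher, with a median log2 fold change of -0.23, and 28.9% of all genes were called lower. With IGF1, 4 were lower and 1 higher, with a median of -0.25, and 23.4% of all genes were called lower. Abca1, which exports cholesterol to lipid-poor apolipoproteins, was at 78.4, 87.4 and 77.9 CPM with vehicle, 56.4, 56.1 and 53.99 CPM with phenylephrine and 58.6, 71.5 and 74.8 CPM with IGF1. Phenylephrine samples were all below the vehicle samples, by 1.46-fold (log2 fold change -0.55, SE 0.079, adjusted p = 6.8e-05). IGF1 samples were below vehicle too, by 1.19-fold (log2 -0.25, adjusted p = 0.019). Without IGF1 replicate 1, the lowest of them, the log2 value was -0.15 (adjusted p = 0.0053), and without vehicle replicate 2 the call ended (adjusted p = 0.067). Phenylephrine gave the lower level of the pair of stimuli (log2 -0.30, adjusted p = 0.006). Beside these falls, summed endothelial markers were 56.7 to 68.1 CPM with phenylephrine and 28.3 to 34.4 CPM with IGF1. With vehicle they were 69.5 to 78.4 CPM. Kdr was the largest part of this sum, at 44.4, 49.1 and 40.5 CPM with vehicle. Of 8 endothelial markers, 1 was higher and 1 lower with phenylephrine, and 5 were lower with IGF1. The part of these and of the other cell types in the LXR and efflux results was not tested.

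Abcg1, which exports cholesterol to high-density lipoprotein, was the only one of the 32 genes called in opposite directions by the 2 stimuli, against 8.05% of all genes tested. Its level was 33.9, 37.04 and 33.2 CPM with vehicle, 26.99, 26.3 and 28.2 CPM with phenylephrine and 40.5, 43.1 and 44.5 CPM with IGF1, and no groups overlapped. It was 1.28-fold lower with phenylephrine (adjusted p = 1.6e-04) and 1.23-fold higher with IGF1 (adjusted p = 6.1e-04). The direct difference was log2 -0.66 (SE 0.061, adjusted p = 3.6e-07), and both directions and all 3 calls held in each of 16 alternatives.

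The LXR receptor genes themselves were lower with IGF1. Nr1h2, the widely expressed LXR beta, went from 101, 97.4 and 99.3 CPM with vehicle to 92.3, 86.1 and 81.4 CPM with phenylephrine and 75.7, 72.2 and 76.2 CPM with IGF1. Each stimulus separated from vehicle, with falls of 1.15-fold and 1.33-fold (adjusted p = 0.0029 and 6.7e-06). Nr1h3, LXR alpha, was at 5.56, 6.16 and 5.06 CPM, 5.60, 5.15 and 5.17 CPM and 4.18, 3.88 and 3.77 CPM in the same order of groups. Only its IGF1 samples lay apart, 1.42-fold below vehicle (adjusted p = 0.0031), while phenylephrine overlapped vehicle (log2 -0.074, 95% interval -0.33 to 0.18). Phenylephrine exceeded IGF1 for both, by 1.16-fold for Nr1h2 and 1.35-fold for Nr1h3 (adjusted p = 0.0018 and 0.009), and the first of these missed the threshold under library-size scaling (adjusted p = 0.12).

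Mylip, an LXR-induced ubiquitin ligase for lipoprotein receptors, was at 12.9, 13.3 and 12.9 CPM with vehicle, 11.3, 10.8 and 11.2 CPM with phenylephrine and 10.2, 11.7 and 11.5 CPM with IGF1. Both stimuli lay below vehicle with no overlap and close to each other (log2 -0.23 and -0.23, adjusted p = 0.026 and 0.031, direct difference 95% interval -0.18 to 0.17). These small falls depended on single samples. With phenylephrine the call ended without vehicle replicate 2 (adjusted p = 0.058) or phenylephrine replicate 2 or 3 (adjusted p = 0.079 and 0.0507). With IGF1 it ended without vehicle replicate 1, 2 or 3 (adjusted p = 0.054, 0.075 and 0.052) or IGF1 replicate 1 (adjusted p = 0.11).

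The comparisons of the 2 stimuli with vehicle share the vehicle samples, so their calls are not independent. Both comparisons called 20 of the sterol genes higher, while 12.3% of all genes tested were higher in both. Abca1, Nr1h2 and Mylip were called lower in both, as were 12.5% of all genes tested. Fdft1, Ebp and Soat1 (higher) and Npc2 (lower) passed with phenylephrine and not with IGF1, and Npc1 and Nr1h3 (lower) passed with IGF1 and not with phenylephrine. The direct differences between the stimuli given above are the tests of these gaps. Without vehicle replicate 2, phenylephrine replicate 2 or phenylephrine replicate 3, 3 rather than 5 genes were lower with phenylephrine, and without vehicle replicate 2, 3 rather than 5 were lower with IGF1.

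**Figure D4:**
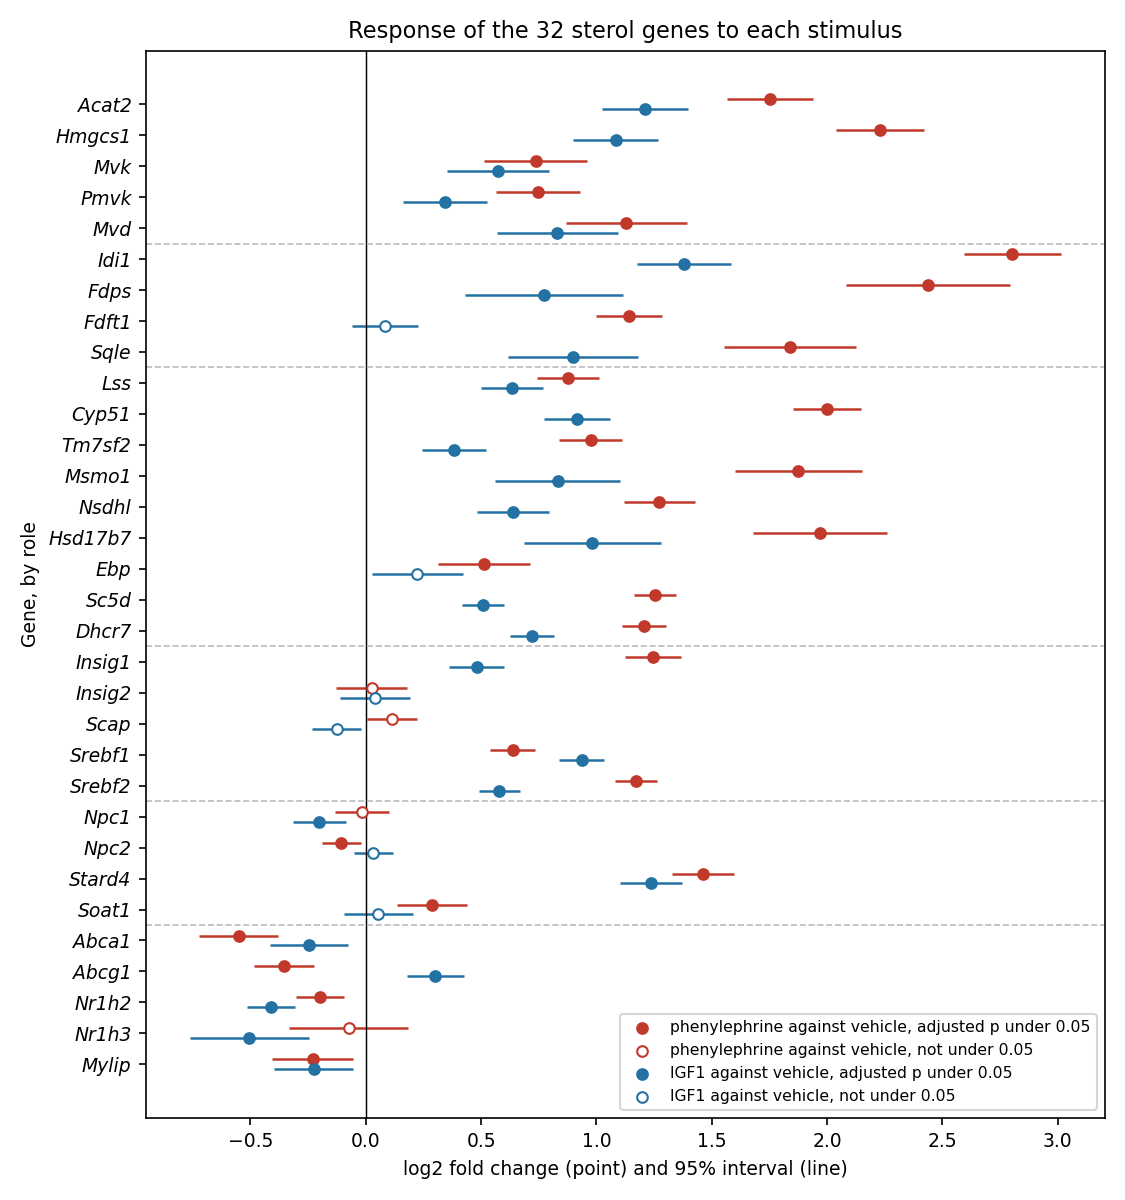
The log2 fold change of each of the 32 genes against vehicle for phenylephrine (red) and IGF1 (blue), with 95% intervals as lines, filled points for an adjusted p under 0.05 and open points otherwise, and dashed lines between role groups. Synthesis genes lie to the right of 0 with red beyond blue, whereas the LXR and efflux genes at the bottom lie mostly to the left, with Abcg1 on both sides.

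A further list of 50 genes around the route (SREBP processing, isoprenoid use, oxysterols, lysosomal and intracellular transport, lipoprotein receptors and LXR partners) was split in direction. Of its 46 tested genes, 14 were higher and 13 lower with phenylephrine, 7 higher and 18 lower with IGF1, and 15 higher and 10 lower with phenylephrine than with IGF1. The shares called higher were 30.4%, 15.2% and 32.6%, against 27.9%, 24.7% and 27.1% of all genes, and the shares called lower were 28.3%, 39.1% and 21.7%, against 28.9%, 23.4% and 27.1%. With library-size scaling alone, 8 of the 46 were higher and 22 lower with phenylephrine, against 14.7% and 48.0% of all genes under that scaling. The median log2 fold changes were 0.042 with phenylephrine and -0.10 with IGF1, and the median difference between phenylephrine and IGF1 was 0.085.

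In that list, Tmem97, a sterol-regulated membrane protein that binds Npc1, rose most among genes called with phenylephrine, from 21.2, 21.2 and 20.8 CPM to 53.6, 54.1 and 55.1 CPM (2.58-fold, adjusted p = 2.5e-10), and rose 1.80-fold with IGF1. Stard5, a relative of Stard4, rose 2.38-fold with phenylephrine (adjusted p = 0.0032). With IGF1 it had a log2 fold change of 0.66 (adjusted p = 0.061), which was 0.30 with an adjusted p of 0.0042 without IGF1 replicate 1, and it also passed without IGF1 replicate 2 (adjusted p = 0.024) or 3 (adjusted p = 0.047). Lpcat3, a phospholipid acyltransferase and LXR target, rose 1.90-fold with IGF1 and 1.27-fold with phenylephrine (adjusted p = 5.3e-10 and 7.1e-06). Vldlr, a lipoprotein receptor, was 1.53-fold higher with phenylephrine than with vehicle (adjusted p = 0.0094) and 1.46-fold higher than with IGF1 (adjusted p = 0.016). Its IGF1 value against vehicle, log2 0.059, was -0.14 without IGF1 replicate 1 (adjusted p = 0.0014).

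The oxysterol hydroxylase Cyp39a1 was 4.19-fold lower with phenylephrine (adjusted p = 2.1e-08), and its smaller fall with IGF1 (log2 -0.36, adjusted p = 0.025) ended without vehicle replicate 3 (adjusted p = 0.0997). Cyp27a1, the mitochondrial sterol hydroxylase, fell 1.63-fold with phenylephrine and 1.57-fold with IGF1 (adjusted p = 5.9e-07 and 1.5e-06). Cyp46a1, a hydroxylase known from neurons, was low, at 1.10, 0.67 and 0.87 CPM with phenylephrine and 1.51, 1.92 and 1.36 CPM with IGF1. It was lower with phenylephrine than with IGF1 (log2 -0.86, adjusted p = 0.015), and the call ended without phenylephrine replicate 2 (adjusted p = 0.071) or IGF1 replicate 2 (adjusted p = 0.072).

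Among the further genes, 4 of the 46 tested (Abca7, Lbr, Osbpl2 and Stard3) were called in opposite directions by the 2 stimuli. This share is close to the 8.05% of all genes tested. Abca7, a lipid transporter related to Abca1, was 1.26-fold higher with phenylephrine and 1.30-fold lower with IGF1 (direct adjusted p = 1.9e-07), the reverse of Abcg1. Lbr, a sterol reductase of the nuclear membrane, was 1.15-fold lower with phenylephrine and 1.21-fold higher with IGF1 (direct adjusted p = 4.2e-05). The sterol transfer genes Osbpl2 and Stard3 were higher with phenylephrine (log2 0.13 and 0.16) and lower with IGF1 (-0.16 and -0.15), with direct adjusted p-values of 1.8e-04 and 1.9e-04. The direct differences held without any 1 sample, whereas several calls against vehicle did not. The fall of Lbr with phenylephrine ended without vehicle replicate 2 (adjusted p = 0.084), phenylephrine replicate 1 (adjusted p = 0.098) or phenylephrine replicate 3 (adjusted p = 0.078). The rise of Osbpl2 ended without vehicle replicate 1 (adjusted p = 0.1), vehicle replicate 2 (adjusted p = 0.11), vehicle replicate 3 (adjusted p = 0.11), phenylephrine replicate 1 (adjusted p = 0.21), IGF1 replicate 2 (adjusted p = 0.055) or IGF1 replicate 3 (adjusted p = 0.061), and that of Stard3 without vehicle replicate 1 (adjusted p = 0.061), vehicle replicate 2 (adjusted p = 0.0511), vehicle replicate 3 (adjusted p = 0.087) or phenylephrine replicate 2 (adjusted p = 0.07). The fall of Stard3 with IGF1 ended without vehicle replicate 1 (adjusted p = 0.068), vehicle replicate 2 (adjusted p = 0.076), IGF1 replicate 2 (adjusted p = 0.13) or IGF1 replicate 3 (adjusted p = 0.0513). Each of the 3 rises with phenylephrine was lost or reversed with scaling by library size only: Abca7 was then at log2 0.14 (adjusted p = 0.14), Osbpl2 at -0.060 and Stard3 at -0.032. The rise of Lbr with IGF1 also ended under that scaling (log2 0.20, adjusted p = 0.0596). With only the 2 groups compared, the fall of Stard3 with IGF1 ended (adjusted p = 0.071).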

How the data were processed

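RNA sequencing of 9 samples (total RNA, 3 per group) gave 1 table of gene counts. The authors deposited raw read counts per gene, whole numbers without normalization. STAR, HTSeq, DESeq and the build rn5 are named, with no role or version, per the submitters' processing notes. The strand setting of the counting is not stated. Genes were matched by symbol, and 26 rows named as dates took no part in the gene lists. Counts were filtered with filterByExpr (at least 10 counts, 15 in total), which kept 11873 genes with 99.99% of all counts, and tested with edgeR 4.0.16 in R 4.3.3 (TMM factors, robust quasi-likelihood test, all 9 samples, Benjamini-Hochberg over all genes tested, threshold 0.05). The SE is the log2 fold change over the square root of F. The fit was tested on simulated data. CPM levels use TMM-scaled library sizes and are not per length, so levels are compared between samples and not between genes. Alternatives were RLE factors, scaling by library size only, DESeq2 1.42.0, no filter, a stricter filter (1 CPM in 3 samples), the replicate block, only the groups compared, and each sample left out. Of the further list, 47 of 50 genes had a row and 46 were tested. The genes named from it are those called with the 2 highest and 2 lowest log2 fold changes in each comparison and those called in opposite directions by the stimuli, and 1 gene that this rule names is not reported here. The 32 genes and all lists were chosen with earlier results of these data known. Promoter sequences are from RefSeq (GRCr8), another build than that of the counts. DNA sequence of Pmvk, Fdft1, Sqle, Stard4 and Abcg1 was not used here.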

Additional observations from a re-analysis of the deposited data

How the results depend on the processing

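The 32 genes gave 96 comparisons, of which 83 passed the threshold. Of these 83, 71 kept their call and their direction in all 16 alternatives, and 0 changed direction in any. With scaling by library size only, the log2 fold change changed sign with phenylephrine for Insig2 (-0.17), Scap (-0.080), Osbpl2 (-0.060) and Stard3 (-0.032), and with IGF1 for Fdft1 (-0.0048), Insig2 (-0.042), Npc2 (-0.049), Soat1 (-0.027), Cyp46a1 (-0.031) and Vldlr (-0.034), and the further list had 8 genes higher and 22 lower with phenylephrine in place of 14 and 13. Under that scaling, 14.7% of all genes were called higher and 48.0% lower with phenylephrine. It leaves out the normalization factors, which differ between the groups. With each sample left out in turn, values that crossed 0 ranged, with phenylephrine, from -0.036 to 0.080 for Insig2 and -0.042 to 0.0040 for Npc1, with IGF1 from -0.017 to 0.082 for Soat1, -0.021 to 0.13 for Fdft1, -0.0017 to 0.059 for Insig2, -0.12 to 0.15 for Cyp46a1 and -0.14 to 0.15 for Vldlr, and between phenylephrine and IGF1 from -0.061 to 0.027 for Mylip and -0.076 to 0.040 for Insig2. The cause was not tested. Over the same leave-outs, 23 to 24 genes were higher and 3 to 5 lower with phenylephrine, 21 to 22 higher and 3 to 5 lower with IGF1, and 22 to 26 higher and 4 lower with phenylephrine than with IGF1, and for the further list 12 to 15 were higher and 11 to 17 lower, 7 to 8 higher and 14 to 19 lower, and 15 to 18 higher and 9 to 12 lower. The labels do not say whether the replicate numbers pair the samples. Same-numbered samples had correlations of their deviations from -0.085 to 0.021, which cannot show whether they were prepared together. With the replicate number as a block, 23 of the 32 genes were higher and 4 lower with phenylephrine, 21 and 5 with IGF1, and 25 and 4 in the comparison of phenylephrine with IGF1, and in the further list 14 and 13, 7 and 19, and 15 and 11. Among the 32 genes the block ended the call of Npc2 with phenylephrine (log2 -0.11, adjusted p = 0.052). At these depths the lowest count of any of the 32 genes was 127 reads, and 3 samples a group limit the precision.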
